A study of Mus musculus with 8 samples.

Results

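The genes described here are 10 members of the Notch pathway, of the 54532 genes counted, in mouse brain pericyte cultures given TGF-β1 or vehicle. They were chosen by symbol and comprise 3 receptors (*Notch1*, *Notch2*, *Notch3*), 2 ligands (*Jag1*, *Dll1*) and 5 targets (*Hes1*, *Hey1*, *Hey2*, *Heyl*, *Nrarp*). All 10 were found among the gene identifiers. Bulk RNA-seq was performed on 8 primary cultures of wild-type (WT) mouse brain pericytes, the cells that wrap capillaries, of which 4 received TGF-β1 at 5 μg mL−1 and 4 received vehicle, all for 48 h. The vehicle cultures carry the replicate numbers 1 to 4 and the TGF-β1 cultures 5 to 8. The study describes the cells as grown from dissociated mouse brain over several passages, at first in an endothelial medium and then in a pericyte medium with less serum, and names no sorting step for them. The study's methods speak of 4 isolates that received both treatments, and the labels do not say which cultures came from the same one. The comparison asks how the levels of the receptors and ligands moved under TGF-β1 beside those of the target genes. *Notch3* is one of the markers that the study uses for the presence of pericytes, with *Pdgfrb* and *Rgs5*.

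Notch receptors are membrane proteins that are switched on by contact with a ligand of the Jagged or Delta-like family on a neighbouring cell. An ADAM protease and then γ-secretase cut the receptor, and the freed intracellular domain enters the nucleus, binds the DNA-binding protein RBPJ together with a Mastermind coactivator and switches on genes of the *Hes* and *Hey* families and *Nrarp*. In vessels, NOTCH3 is the receptor typical of pericytes and smooth muscle cells, JAG1 on endothelium is one of its ligands, and mutations of human NOTCH3 cause the small vessel disease CADASIL. *Heyl* is regarded as a typical target of NOTCH3 in mural cells, the collective name of pericytes and vascular smooth muscle cells.

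Promoter sequence is shown for the 2 ligands, which fell, and for 2 targets, of which 1 was not called and 1 was too scarce to be tested, so that the letters near their starts can be set beside their values. The RefSeq table for GRCm38.p6 held the promoters of 7 of the 10 genes, 8 promoters in all since *Dll1* has 2 starts, and *Hes1*, *Hey1* and *Heyl* had no entry. Each stretch is 260 bases long, 250 before the start and 10 after it, 5′ to 3′ on the strand of the gene. Capitals mark the motifs found among those searched on both strands of each 300-base window, namely the RBPJ motif GTGGGAA and its core TGGGAA, which lies within it, the E-box CACGTG, and the SMAD motifs GTCTAGAC and GGCGCC. *Jag1* lies at chr2:137116511-137116770 and *Dll1* at chr17:15376923-15377182, both on the minus strand. *Hey2* lies at chr10:30842774-30843033 on the minus strand and *Nrarp* at chr2:25180508-25180767 on the plus strand.
Jag1: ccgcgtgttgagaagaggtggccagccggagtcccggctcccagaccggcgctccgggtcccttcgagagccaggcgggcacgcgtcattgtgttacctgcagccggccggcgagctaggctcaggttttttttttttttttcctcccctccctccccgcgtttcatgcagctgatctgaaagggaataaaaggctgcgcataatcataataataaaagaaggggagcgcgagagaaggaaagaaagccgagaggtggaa
Dll1: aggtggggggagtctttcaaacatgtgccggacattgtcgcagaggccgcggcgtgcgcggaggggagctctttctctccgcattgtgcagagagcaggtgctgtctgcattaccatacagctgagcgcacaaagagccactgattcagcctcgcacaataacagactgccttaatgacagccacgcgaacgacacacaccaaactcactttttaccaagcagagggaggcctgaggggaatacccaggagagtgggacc
Hey2: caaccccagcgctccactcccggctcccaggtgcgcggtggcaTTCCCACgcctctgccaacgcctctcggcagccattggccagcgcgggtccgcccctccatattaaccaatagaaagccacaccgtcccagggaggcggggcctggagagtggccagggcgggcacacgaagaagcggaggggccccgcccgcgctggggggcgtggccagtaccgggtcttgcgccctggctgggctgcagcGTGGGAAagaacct
Nrarp: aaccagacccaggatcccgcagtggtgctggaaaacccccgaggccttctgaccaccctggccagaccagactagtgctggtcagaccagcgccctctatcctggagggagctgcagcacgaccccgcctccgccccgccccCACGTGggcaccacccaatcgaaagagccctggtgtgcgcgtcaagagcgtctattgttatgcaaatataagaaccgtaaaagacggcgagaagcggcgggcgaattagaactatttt
The *Hey2* promoter held GTGGGAA 2 times, once on each strand, and 1 of the matches spans the start. At least 1 match was found in 6.38% of all 32851 promoters of the table, and 2 or more in 0.256% of them. *Nrarp* held 1 E-box, which 7.15% of all promoters hold. No motif searched was found in the windows shown for *Jag1* and *Dll1* or in those of *Notch1*, *Notch2* and *Notch3*. GGCGCC was found at the inner start of *Dll1* and in *Hey2* beyond the bases shown, and 11.9% of all promoters hold it. The core TGGGAA occurs in 25.6% and GTCTAGAC in 0.213% of them. These matches describe letters, and binding was not measured.

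Library totals ran from 45255235 to 47651397 counts with vehicle and from 45988208 to 46827358 with TGF-β1. Levels are given in CPM (read counts relative to the library total after TMM scaling), and 3 counts correspond to 0.0631 to 0.0658 CPM. Of 10 mural markers, 5 stayed under 1 CPM in every culture, among them *Kcnj8*, *Abcc9* and *Vtn*, while *Pdgfrb* reached 202 ± 5.43 CPM with vehicle and 291 ± 2.58 CPM with TGF-β1 (SD, n = 4 each), so the label is borne out by part of its markers only. Of the 7 mural markers tested, 3 were higher and 2 lower at an edgeR adjusted p under 0.05, beside 20.9% and 20.3% of all genes tested. The summed mural list ran from 333 to 350 CPM with vehicle and from 498 to 514 CPM with TGF-β1. *Pdgfrb* and *Cspg4* make up most of that sum, whereas *Rgs5* fell from 8.62 ± 0.466 to 2.13 ± 0.245 CPM (log2 fold change -2.02, edgeR adjusted p = 7.63e-21) and *Anpep* from 40.5 ± 3.52 to 30.1 ± 1.396 CPM (-0.43, edgeR adjusted p = 5.13e-09). The endothelial list of 10 ran from 472.5 to 486 and from 475.5 to 501 CPM, most of it *Cdh5* (mean 371 CPM), while *Cldn5*, *Tie1*, *Emcn* and *Erg* stayed under 1 CPM. With vehicle and TGF-β1, *Flt1* (means 81.7 and 99.2 CPM) and *Vwf* (1.58 and 3.81 CPM) were higher and *Tek* (2.71 and 1.99 CPM) lower. *Cdh5*, *Kdr* (17.9 and 18.6 CPM) and *Pecam1* (1.11 and 1.11 CPM) were not called. The 6 fibroblast markers summed to between 1655 and 1737 CPM with vehicle and between 2569 and 2696 CPM with TGF-β1, most of it *Col1a1*, the only one that rose, while *Dcn* (log2 fold change -0.16) and *Fmod* (-0.53) fell and *Pdgfra* (0.01) was not called. The 6 astrocyte markers summed to 192 to 199 and 131 to 142 CPM, most of it *Sox9* (means 146 and 110 CPM). *Sox9*, *Slc1a2* and *S100b* fell, *Aldh1l1* rose, *Gfap* (0.879 and 0.947 CPM) was not called and *Aqp4* had too few reads for the test. The 8 macrophage and microglia markers summed to 104 to 109 and 102.5 to 105 CPM. *Tmem119* alone had a mean of 100.4 CPM, and 5 of the 8 stayed under 1 CPM in every culture. The 6 oligodendrocyte lineage markers summed to 4.12 to 5.52 and 5.38 to 6.11 CPM. Among them *Mbp* (1.86 and 2.62 CPM) was higher and *Sox10* (0.451 and 0.212 CPM) lower, the latter with overlapping groups. In bulk RNA, fewer cells of a type and less RNA per cell cannot be told apart, and the part of these shifts in the results below was not tested.

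Both ligands fell, and 1 receptor and 1 abundant target rose. A scarce target, *Hey1*, was called lower with overlapping groups, and its call was lost in some of the alternatives given below. Of the 8 members that passed the filter on low counts, *Notch2* and *Hes1* were higher and *Jag1*, *Dll1* and *Hey1* were lower at an adjusted threshold of 0.05 (quasi-likelihood test of edgeR). In that test 41.3% of the 22544 genes tested were called, 20.9% as higher and 20.3% as lower. *Notch1*, *Notch3* and *Hey2* were not called, and *Heyl* and *Nrarp* had too few reads for the test. The groups did not overlap in *Notch2*, *Jag1*, *Dll1* and *Hes1*, 4 of the 8, while 37.9% of all genes tested showed no overlap. The median absolute log2 fold change of the 8 was 0.29, and that of all genes tested was 0.19. With 8 genes tested, the count of 5 called is read as no more than that background.

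**Figure D1:**
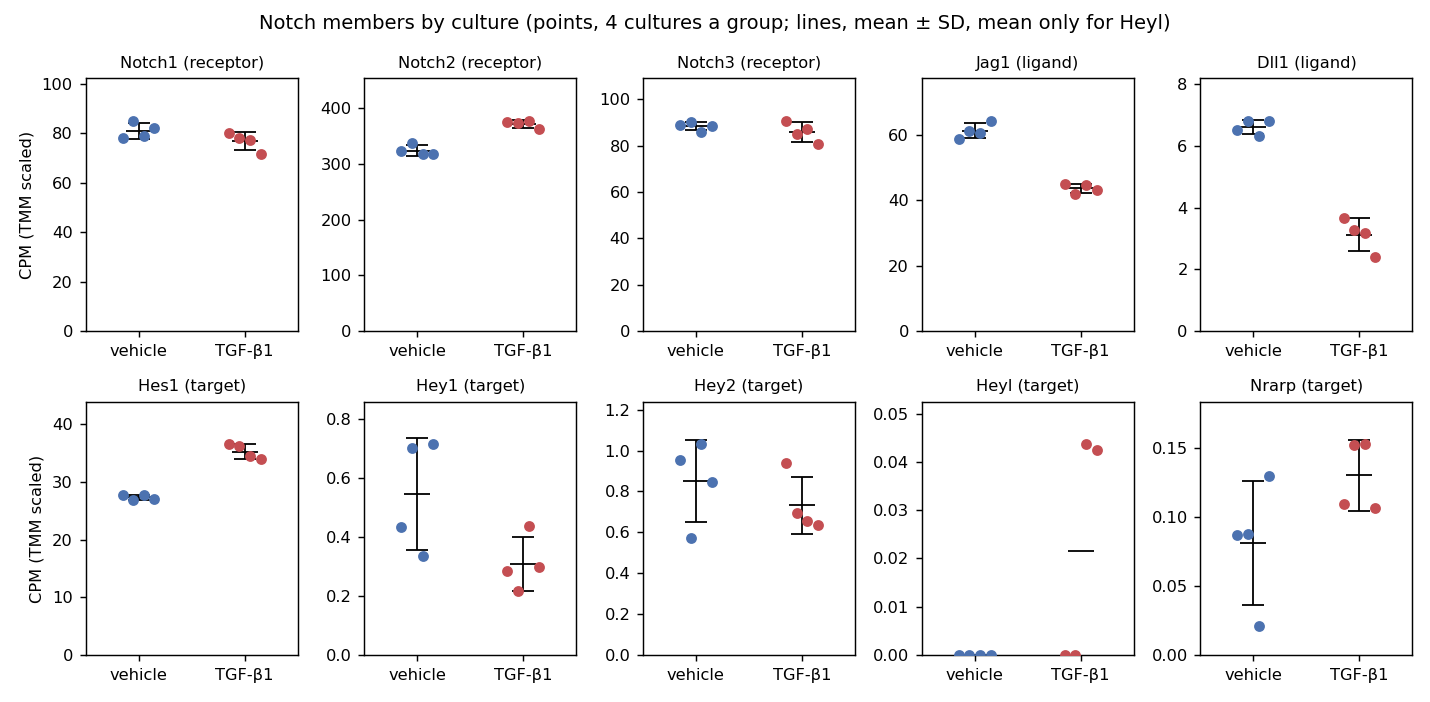
Levels of the 10 Notch members in each culture, as CPM scaled with TMM factors on axes that start at 0, with 4 vehicle and 4 TGF-β1 cultures as points and the mean ± SD as lines (the mean only for *Heyl*). *Jag1* and *Dll1* lie lower and *Notch2* and *Hes1* higher in every TGF-β1 culture, whereas *Notch1* and *Notch3* overlap, and the axes of *Heyl* and *Nrarp* end below 0.2 CPM.

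Among the receptors, *Notch2* was the most abundant per kb of exon and the only 1 of the 3 that was called. *Notch2* (ENSMUSG00000027878, chromosome 3, 98013527 to 98150361 of GRCm38) had 323, 338, 318 and 318 CPM in vehicle cultures 1 to 4 and 375, 374, 378 and 363 CPM in TGF-β1 cultures 5 to 8. Every TGF-β1 culture was above every vehicle culture, by 14.9% on average. This was a log2 fold change of 0.20 (standard error 0.02, 95% interval 0.15 to 0.25, edgeR adjusted p = 1.53e-09). The gene *Gm42820*, on the same strand, covers 5.02% of the exon bases of *Notch2*.

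*Notch3*, the receptor of mural cells, stayed within the spread of the cultures. *Notch3* (ENSMUSG00000038146, chromosome 17, 32120820 to 32166852) had 89.0, 90.4, 85.9 and 88.5 CPM with vehicle and 90.8, 84.9, 87.2 and 80.8 CPM with TGF-β1. The highest and the lowest value both belonged to the TGF-β1 group. The log2 fold change was -0.04 (95% interval -0.10 to 0.02, edgeR adjusted p = 0.301), so the interval leaves out a fall larger than 0.10 and a rise larger than 0.02 on the log2 scale. The opposite-strand gene *Gm17276*, which was not called, covers 6.03% of its exon bases.

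*Notch1*, which is widely expressed and prominent in endothelium, stood near the threshold. *Notch1* (ENSMUSG00000026923, chromosome 2, 26457903 to 26516663) had 78.0, 85.1, 78.8 and 82.0 CPM with vehicle and 80.0, 78.0, 77.4 and 71.5 CPM with TGF-β1. The groups overlapped, and TGF-β1 culture 8 was the lowest of the 8. Its log2 fold change was -0.08 (95% interval -0.14 to -0.01, not adjusted) with an edgeR adjusted p of 0.0573. Opposite-strand genes cover 9.76% of its exon bases. It was called with library totals as the only scaling (adjusted p = 0.0226), without vehicle replicate 1 (0.0371) and without TGF-β1 replicate 5 (0.0179), with a log2 fold change between -0.10 and -0.09 in these.

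Both ligands fell, *Jag1* from a higher level per kb of exon than *Dll1*. *Jag1* (ENSMUSG00000027276, chromosome 2, 137081456 to 137116644), the Jagged ligand whose promoter is shown above, had 58.8, 61.2, 60.7 and 64.4 CPM with vehicle and 44.9, 42.1, 44.6 and 43.1 CPM with TGF-β1. The lowest vehicle culture was above the highest TGF-β1 culture. The log2 fold change was -0.49 (standard error 0.04, 95% interval -0.56 to -0.42, edgeR adjusted p = 8.39e-16), a fall by 28.7%.

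*Dll1* (ENSMUSG00000014773, chromosome 17, 15367354 to 15376872) encodes a Delta-like ligand and had 6.51, 6.82, 6.33 and 6.80 CPM with vehicle and 3.67, 3.29, 3.16 and 2.40 CPM with TGF-β1. The groups lay far apart, and TGF-β1 culture 8 was the lowest. It fell by a log2 fold change of -1.08 (standard error 0.11, 95% interval -1.30 to -0.86, edgeR adjusted p = 1.14e-11), or 52.7%. Exons of *A930024N18Rik* on the opposite strand cover 20.5% of the exon bases of *Dll1*. That gene had 38 to 66 reads per vehicle culture and 21 to 36 per TGF-β1 culture (log2 fold change -0.95, edgeR adjusted p = 0.000794). The library kit keeps strand, but the strand setting of the counting is not given in the sources used here. How reads in the shared bases were assigned is therefore not known.

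**Figure D2:**
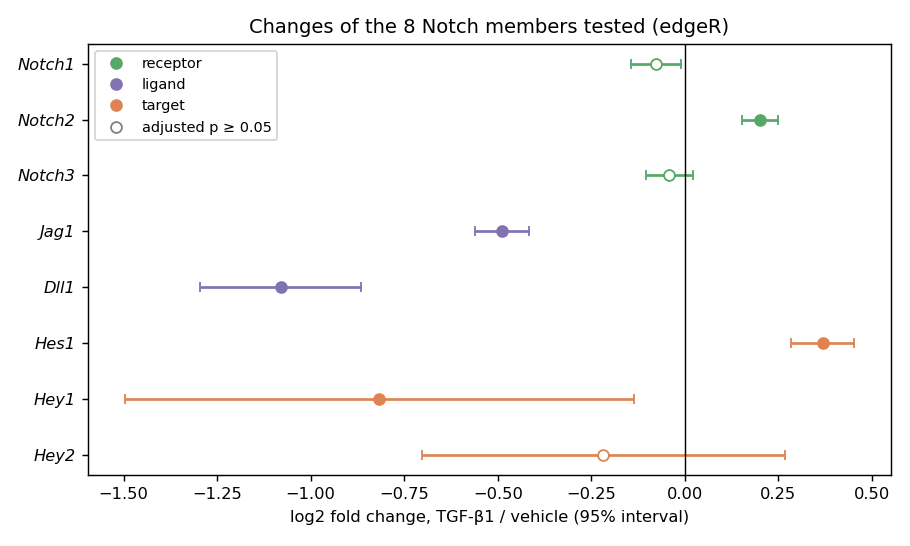
Log2 fold changes of the 8 members tested, TGF-β1 over vehicle, with unadjusted 95% intervals from edgeR's quasi-likelihood fit, coloured by role and open where the adjusted p was 0.05 or more. The ligands *Jag1* (-0.49) and *Dll1* (-1.08) lie to the left and *Notch2* (0.20) and *Hes1* (0.37) to the right of 0, and the intervals of *Hey1* and *Hey2* are the widest.

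Of the 5 targets, 3 could be tested. *Hes1*, a repressor of the bHLH class and the most abundant of them per kb, rose. *Hes1* (ENSMUSG00000022528, chromosome 16, 30064384 to 30067796) had 27.7, 26.8, 27.8 and 27.0 CPM with vehicle and 36.5, 36.2, 34.5 and 33.9 CPM with TGF-β1. The lowest TGF-β1 culture was above the highest vehicle culture. *Hes1* rose by a log2 fold change of 0.37 (standard error 0.04, 95% interval 0.28 to 0.45, edgeR adjusted p = 4.73e-10), or 29.1%. Besides Notch, other signals are known to act on this gene, and which of them acted here was not tested.

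*Hey1* (ENSMUSG00000040289, chromosome 3, 8663359 to 8667256), a related repressor, was scarce. It had 20, 32, 16 and 33 reads in the vehicle cultures and 13, 10, 20 and 14 in the TGF-β1 cultures. TGF-β1 culture 7 lay above 2 of the vehicle cultures in CPM. The log2 fold change was -0.82 (standard error 0.34, 95% interval -1.50 to -0.14), with an edgeR adjusted p of 0.0485. The call was lost with DESeq2 (adjusted p = 0.0974), with the filter of at least 1 count (0.0721), and without vehicle replicate 2 (0.170), vehicle replicate 4 (0.1725) or TGF-β1 replicate 5 (0.0929), 6 (0.140) or 8 (0.0915), while the direction held in each. With those settings the background moved as well. Of all genes tested, 32.8% were called with DESeq2, 20.2% with at least 1 count, 45% with at least 10 counts in every culture, 45.9% with counts per fragment, 41% to 41.3% with other scalings, and 37.2% to 39.3% with 1 culture left out.

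*Hey2* (ENSMUSG00000019789, chromosome 10, 30832359 to 30842801), whose promoter with 2 RBPJ motifs is shown above, had 44, 26, 49 and 39 reads with vehicle and 43, 32, 30 and 30 with TGF-β1. The groups overlapped throughout. The log2 fold change was -0.22 (95% interval -0.70 to 0.27, edgeR adjusted p = 0.513), an interval wide enough to hold a fall like that of *Jag1* as well as no change.

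*Heyl* (ENSMUSG00000032744, chromosome 4, 123233556 to 123249875) was almost without reads. It had 0 reads in each of the 4 vehicle cultures and 0, 0, 2 and 2 in the TGF-β1 cultures. A count of 0 allows up to 3 independent fragments per library, for counting error only, and fragments are fewer than counts. No fold is given, because both groups are at or under that limit.

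*Nrarp* (ENSMUSG00000078202, chromosome 2, 25180758 to 25183339), which encodes a small ankyrin repeat protein that restrains Notch signalling, had 4, 4, 1 and 6 reads with vehicle and 5, 7, 7 and 5 with TGF-β1. The groups overlapped, and a difference was not detectable at this depth. The annotated gene *Gm38287* on the opposite strand covers 79.4% of the exon bases of *Nrarp* and is listed with 0 reads in each culture. Whether reads in the shared bases were left uncounted was not tested.

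Among the TGF-β1 cultures, culture 8 had the lowest CPM of *Notch1*, *Notch2*, *Notch3*, *Dll1*, *Hes1* and *Hey2*. Without it the log2 fold change was -0.04 for *Notch1* (edgeR adjusted p = 0.425), -0.01 for *Notch3* (edgeR adjusted p = 0.923) and -0.96 for *Dll1*, which kept its call. After the group means were removed, Pearson's r over the 8 cultures ran from -0.66 (*Hes1* and *Hey1*) to 0.90 (*Notch3* and *Dll1*) among the 28 pairs of members tested. These are descriptions of 8 points that share libraries.

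Levels of different genes were compared per length, as CPM per kb of exon in GENCODE M21. With vehicle the order was *Notch2* (30.1 ± 0.891), *Hes1* (13.4 ± 0.249), *Notch3* (10.9 ± 0.229), *Jag1* (10.5 ± 0.400), *Notch1* (5.69 ± 0.227), *Dll1* (1.57 ± 0.0560), *Hey2* (0.185 ± 0.0439), *Hey1* (0.168 ± 0.0584), *Nrarp* (0.0315 ± 0.0174) and *Heyl*, each as mean ± SD of 4 cultures in CPM per kb. The neighbours *Notch3* and *Jag1* overlapped in range, as did *Hey2* and *Hey1*, and the other neighbours did not. The value of *Nrarp* divides by all of its exon bases, of which *Gm38287* covers 79.4%, so its distance from *Hey1* and *Hey2* is uncertain. The abundant and the scarce targets thus lay far apart, with *Hes1* beside the receptors and *Hey1*, *Hey2*, *Nrarp* and *Heyl* below the ligands.

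With TGF-β1 the values were 34.5 ± 0.632 for *Notch2*, 17.3 ± 0.622 for *Hes1*, 10.6 ± 0.519 for *Notch3*, 7.49 ± 0.226 for *Jag1*, 5.39 ± 0.258 for *Notch1* and 0.742 ± 0.125 for *Dll1*, in CPM per kb (mean ± SD, n = 4). *Jag1* no longer overlapped *Notch3*. *Hey2* was at 0.159 ± 0.0304, *Hey1* at 0.0946 ± 0.0281 and *Nrarp* at 0.0504 ± 0.0100 CPM per kb. With the length of the longest coding transcript in place of all exons, a choice made after the values were seen, *Notch1* (8.08) passed *Jag1* (7.78) in the TGF-β1 cultures and the other positions were kept.

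Within the sum of the 4 receptor genes per kb, *Notch2* took 62.3% to 63.2% in the vehicle cultures and 65.5% to 67.1% in the TGF-β1 cultures. *Notch3* took 22.5% to 23.2% and 19.9% to 21.1%, *Notch1* took 11.5% to 12.2% and 10.02% to 10.6%, and *Notch4* took 2.14% to 2.42% and 2.59% to 3.28%. None of these ranges overlapped between the groups, although the levels of *Notch1* and *Notch3* themselves did. Shares of the same sum are tied to each other, so the higher level of *Notch2* lowers the other shares even where levels stay the same.

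**Figure D3:**
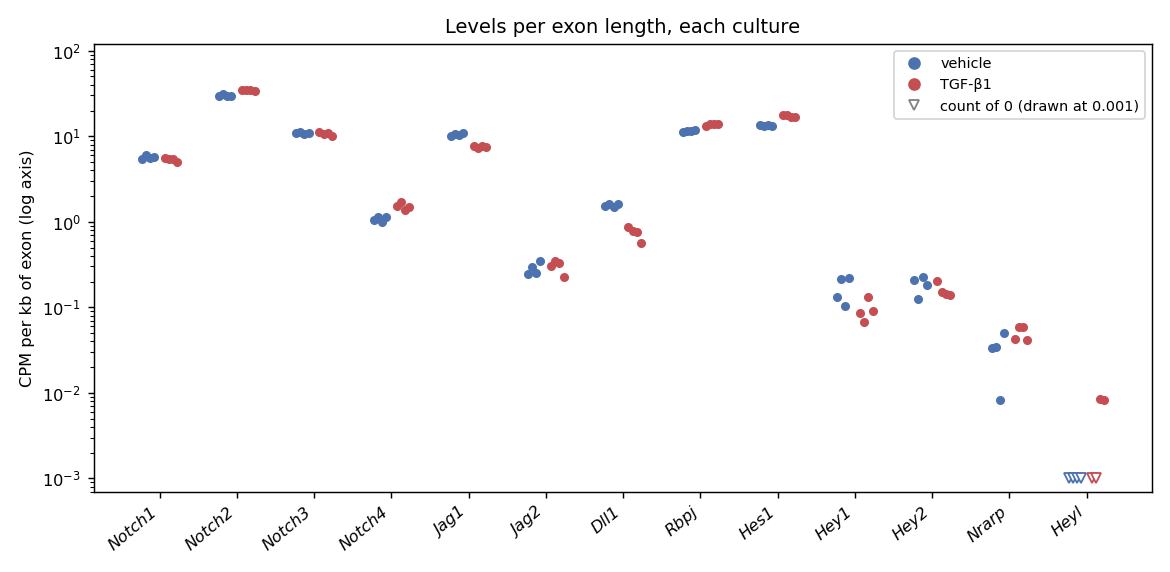
Levels of the members and of *Notch4*, *Jag2* and *Rbpj* in each culture, in CPM per kb of exon on a log axis, with open triangles at 0.001 for a count of 0. *Notch2* lies highest near 30, *Hes1*, *Notch3*, *Jag1* and *Rbpj* lie near 10, and *Hey1*, *Hey2*, *Nrarp* and *Heyl* lie below 0.3.

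To ask whether 2 members changed by different amounts, log2 ratios between 8 pairs of members were taken in each culture. The ratio of *Hes1* to *Notch3* rose from -1.69 ± 0.05 with vehicle to -1.28 ± 0.05 with TGF-β1 (SD, n = 4 each, log2 CPM ratio), and the groups did not overlap (exact permutation test, two-sided, p = 0.0286, adjusted p = 0.0571 over the 6 pairs tested). The ratio of *Notch2* to *Notch3* went from 1.87 ± 0.03 to 2.12 ± 0.05, again without overlap (exact permutation test, p = 0.0286, adjusted p = 0.0571). The ratio of *Jag1* to *Dll1* went from 3.20 ± 0.05 to 3.80 ± 0.24 (exact permutation test, p = 0.0286, adjusted p = 0.0571), the same smallest p that 4 cultures against 4 allow. None of the 6 passed 0.05 after adjustment. With so few splits, no pair could pass unless most of the 6 reached the smallest p. The adjusted values therefore do not decide whether these members changed by different amounts.

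The other pairs overlapped. The ratio of *Notch1* to *Notch3* was -0.13 ± 0.04 with vehicle and -0.16 ± 0.03 with TGF-β1 (exact permutation test, p = 0.314, adjusted p = 0.377). The ratio of *Hey1* to *Notch3* differed by -0.68 (exact permutation test, p = 0.0857, adjusted p = 0.129) and that of *Hey2* to *Notch3* by -0.15 (exact permutation test, p = 0.514, adjusted p = 0.514). The pairs of *Heyl* and *Nrarp* with *Notch3* were not tested, as these genes did not pass the filter. The mean log2 fold change of the 3 targets tested exceeded that of the 5 receptors and ligands by 0.08, a description without a test. Among these targets only *Hes1* (0.37) was above 0, beside *Hey1* (-0.82) and *Hey2* (-0.22). Among the receptors and ligands only *Notch2* (0.20) was, beside *Notch1* (-0.08), *Notch3* (-0.04), *Jag1* (-0.49) and *Dll1* (-1.08). The difference of the means was 0.79 with DESeq2 and 0.93 with at least 1 count in any culture, where all 5 targets enter. It was 0.03 to 0.13 with 1 culture left out.

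**Figure D4:**
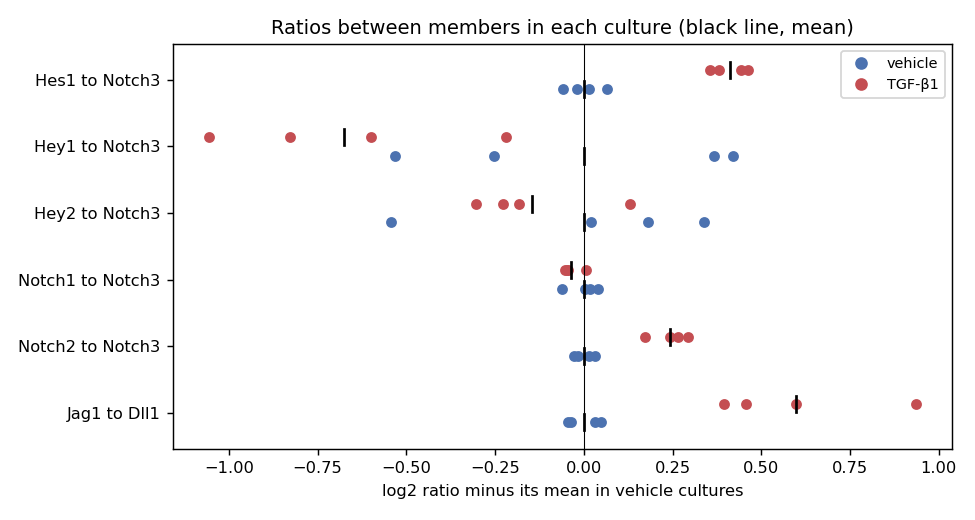
Log2 ratios between members in each culture, with the vehicle mean of each pair set to 0, vehicle and TGF-β1 cultures as points and the group means as black lines. For *Hes1* to *Notch3*, *Notch2* to *Notch3* and *Jag1* to *Dll1* all TGF-β1 points lie to the right of the vehicle points, with mean differences of 0.41, 0.24 and 0.60, and the other pairs overlap.

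The rest of the pathway moved in both directions too. A list of 61 further pathway genes was described, of which 54 were tested. By the same edgeR test and threshold, 14 of them rose and 18 fell, beside 20.9% and 20.3% of all genes tested. Nothing more is read from these counts, as the list was not tested against other genes. The median log2 fold change was -0.02 and the median absolute value 0.15, where all genes tested had -0.01 and 0.19.

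Among the other receptors and ligands, *Notch4*, known from endothelium, rose from 8.38, 9.26, 8.04 and 9.23 CPM to 12.2, 13.9, 10.98 and 12.02 CPM. The groups did not overlap (log2 fold change 0.49, standard error 0.07, edgeR adjusted p = 3.23e-07). *Dlk1*, a Delta-like protein without the usual receptor-binding domain, fell from 1.29 ± 0.203 to 0.781 ± 0.202 CPM (SD, n = 4 each, log2 fold change -0.72, edgeR adjusted p = 0.00586). *Jag2* was at 1.98 ± 0.316 and 2.09 ± 0.361 CPM and was not called (edgeR adjusted p = 0.747). *Dll4*, the Delta-like ligand of endothelium, had 10, 16, 12 and 5 reads with vehicle and 8, 2, 2 and 5 with TGF-β1 and was not tested. *Notch4* was the only gene of this group that rose. Of the 6 endothelial markers tested, 2 rose and 1 fell, beside 20.9% and 20.3% of all genes tested. The part of endothelial cells in the rise of *Notch4* was not tested.

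Of the 10 protease and γ-secretase genes tested, which serve to cut the receptor, 6 were lower and 1 was higher, where 20.3% of all genes tested were lower and 20.9% higher. No test set this group apart from other genes. *Furin*, the convertase that cleaves the receptor on its way to the surface, rose from 257 ± 4.71 to 328 ± 5.03 CPM (log2 fold change 0.35, edgeR adjusted p = 3.23e-17). *Adam10*, the main protease of ligand-dependent cleavage, was among the lower genes (log2 fold change -0.26, edgeR adjusted p = 4.08e-12). It was named after its values were seen. *Psen2* (-0.04, edgeR adjusted p = 0.631), which encodes a catalytic subunit and was also named afterwards, was not called. The subunits *Aph1b* (-0.47, edgeR adjusted p = 3.85e-09) and *Aph1c* (-0.89, edgeR adjusted p = 4.59e-06) fell most. They are close paralogs, so the split of reads between them is uncertain.

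Of the 4 sugar-modifying genes tested, *Pofut1* (log2 fold change 0.18, edgeR adjusted p = 1.14e-05) and *Poglut1* (0.08, edgeR adjusted p = 0.0351), which add the first sugars to the EGF repeats of the receptor, were higher, and none was lower. Of the 14 genes of endocytosis and turnover, 3 were higher and 5 lower. Over all genes tested 20.9% were higher and 20.3% lower, and neither the sugar-modifying group nor this group was tested against them. The Deltex genes, which encode ubiquitin ligases, were split, with *Dtx4* higher (105 ± 3.93 to 140 ± 4.85 CPM, log2 fold change 0.42, edgeR adjusted p = 3.16e-16) and *Dtx3l* lower (373 ± 14.7 to 242 ± 16.4 CPM, log2 fold change -0.63, edgeR adjusted p = 2.98e-06). *Numbl*, a relative of the Notch antagonist *Numb*, rose (log2 fold change 0.31, edgeR adjusted p = 6.76e-12), and *Neurl1b*, a ubiquitin ligase acting on ligands, fell (-0.21, edgeR adjusted p = 0.00172).

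Of the 14 genes of the nuclear complex, 5 were higher and 5 lower, beside 20.9% and 20.3% of all genes tested. *Rbpj*, the DNA-binding partner of the receptor, rose from 142, 147, 146 and 152 CPM to 167, 175, 177 and 178 CPM. Every TGF-β1 culture was above every vehicle culture (log2 fold change 0.25, standard error 0.03, edgeR adjusted p = 1.16e-10). The coactivator *Maml2* fell (107 ± 4.69 to 83.5 ± 1.61 CPM, log2 fold change -0.36, edgeR adjusted p = 9.92e-14). *Tle4*, a Groucho corepressor that HES proteins recruit, fell most among them, from 24.3, 24.3, 25.1 and 24.5 CPM to 13.05, 12.2, 11.6 and 13.4 CPM. The groups lay far apart, at a log2 fold change of -0.97 (standard error 0.05, edgeR adjusted p = 1.99e-19).

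Of the other 8 hairy-type repressor genes, 4 were tested. *Bhlhe40*, known as a response gene of several signals including TGF-β and hypoxia, rose most of all genes on the list, from 84.1, 83.7, 79.5 and 85.6 CPM to 177, 180, 184 and 184 CPM (log2 fold change 1.12, standard error 0.03, edgeR adjusted p = 2.55e-32). *Bhlhe41* was slightly lower (-0.15, edgeR adjusted p = 0.00487), and the opposite-strand gene *Gm43909* covers 19.0% of its exon bases. *Hes2*, *Hes3*, *Hes5* and *Helt* had too few reads for the test. Among the 4 genes described as under Notch control in mural cells, *Pdgfrb*, the PDGF receptor that pericytes depend on, was higher (log2 fold change 0.53, edgeR adjusted p = 1.26e-22), and *Acta2* (-0.03, edgeR adjusted p = 0.339), *Myh11* (-0.47, edgeR adjusted p = 0.0780) and *Nrip2* (-0.13, edgeR adjusted p = 0.354) were not called.

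**Figure D5:**
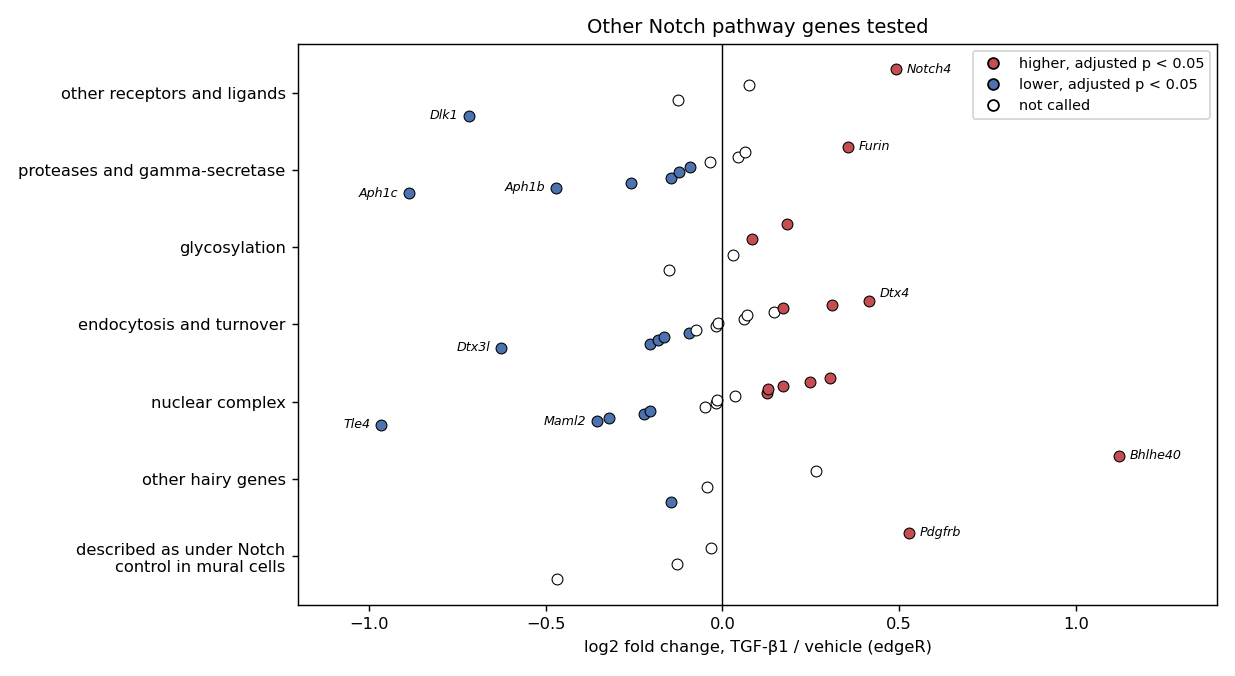
Log2 fold changes (TGF-β1 over vehicle) of the 54 further pathway genes tested, grouped by role along the vertical axis, with filled points where the edgeR test called the gene. Rises and falls stand side by side within most groups, with *Bhlhe40* at 1.12 and *Tle4* at -0.97 at the ends, and the proteases and γ-secretase genes lie mostly to the left of 0.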

How the data were processed

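Bulk RNA-seq was carried out on 8 pericyte cultures. According to the study's methods and processing notes, the authors aligned reads to mm10 with STAR 2.7.5c, used SAMtools 1.15 to discard PCR duplicates and obtained gene counts from featureCounts 2.0.3. The counts were deposited without normalization. The library kit is stranded. The annotation and strand setting of the counting are not given in the sources used here. Of 54532 identifiers, 54409 were paired with a symbol, and positions and exon lengths came from GENCODE M21 (GRCm38).

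Counts were tested with edgeR 4.0.16 in R 4.3.3 (filterByExpr, TMM, robust quasi-likelihood test, Benjamini-Hochberg adjustment over 22544 genes, threshold 0.05). Standard errors were the log2 fold change divided by the square root of F. Ratios used log2 CPM with a prior count of 2 and exact permutation over 70 splits. The code was tested on simulated data. The alternatives were DESeq2 1.42.0, other scalings and filters, counts per fragment and each culture left out. Of low counts (1 to 20), 68.5% to 70.2% were even, so fragments are fewer than counts. Pairs of libraries within a group differed by a chi-square per degree of freedom of 2.25 to 3.93, or 1.14 to 2.10 with counts halved. These values cannot show whether the cultures came from separate isolates. Each library was kept as 1 replicate because the labels number it so. The labels number the cultures, and the series describes 8 cultures, but the study's methods speak of 4 isolates that received vehicle and TGF-β1, so cultures of the 2 groups may share an isolate. The tests here are unpaired, and p-values measure the spread between the cultures.

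The members and lists were chosen with earlier results of these data known. All 10 members are named, and from the pathway list up to 2 called genes per subgroup and direction with the largest change, besides *Rbpj*, *Notch4*, *Jag2* and *Dll4*. Other genes are said to have been named after their values were seen, or were given only as markers, overlapping genes or members of a small subgroup. Some genes of the pathway list are not reported here by name.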

Additional observations from a re-analysis of the deposited data

Results flagged for a closer look

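Among 78 groups of 4 values, 2 held a value set far apart from its group, and 3.9 would be so by chance at a rate of 5%. In TGF-β1 replicate 6 *Pofut1* reached 57.8 CPM, against 55.8 CPM in the nearest culture of the group. The log2 ratio of *Notch1* to *Notch3* was -0.12 in TGF-β1 replicate 6, against -0.17 in the nearest. Both are small departures in 1 culture, and no member of the 10 was set apart in this way by its own level.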

How the results depend on the processing

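No paired analysis was possible because the vehicle cultures are numbered 1 to 4 and the TGF-β1 cultures 5 to 8, so the groups share no number. The study's methods describe 4 isolates given vehicle and TGF-β1, so the unpaired tests leave out a pairing that the labels do not resolve. The number of genes called ranged from 8655 to 9311 with another tool, scaling, filter or counting unit and from 8559 to 9038 with 1 culture left out. *Notch2* and *Hes1* stayed higher and *Jag1* and *Dll1* lower, with an adjusted p under 0.05, in all of these. Calls of lower members numbered 2 to 4 both with a culture left out and in the other alternatives, as *Hey1* lost and *Notch1* gained the call. Pathway genes called higher numbered 12 to 14 and lower 17 to 19. *Hey1* also lost the call with DESeq2 size factors (adjusted p = 0.05025), and *Notch1* was called with upper-quartile factors (0.0374) and at least 1 count (0.0402). No scaling shifted the median log2 fold change by more than 0.011 in size. The mean of the targets minus that of the receptors and ligands was 0.79 with DESeq2 and 0.93 with at least 1 count in any culture, where *Heyl* and *Nrarp* enter with a few reads, and 0.03 to 0.13 with 1 culture left out. With a prior count of 0.5 or 5 the pair differences kept their direction, with adjusted p above 0.05. With a culture left out they kept their direction, from 0.39 to 0.43 for *Hes1* to *Notch3*, 0.23 to 0.27 for *Notch2* to *Notch3*, 0.48 to 0.66 for *Jag1* to *Dll1*, -0.85 to -0.54 for *Hey1* to *Notch3*, -0.33 to -0.03 for *Hey2* to *Notch3* and -0.06 to -0.02 for *Notch1* to *Notch3*, and no p was computed for them. Depth limits *Hey1*, *Hey2*, *Nrarp* and *Heyl*.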

Other observations

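Over the 8 cultures and 16493 other genes with a mean of at least 1 CPM, the genes whose log2 CPM followed that of *Notch3* most closely were *Kdm6b* (Pearson r 0.969, 96.0 CPM), *E030018B13Rik* (0.961, 3.54 CPM) and *Susd6* (0.956, 577 CPM). With the group means removed r was 0.968, 0.952 and 0.946. None of the 3 was called (edgeR adjusted p = 0.122, 0.338 and 0.356). These values describe 8 points that share libraries and their depth, out of many genes compared, and no p is given.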
